A study of Mus musculus with 10 samples.

Results

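Interferon receptors, the interleukin 10 receptor chain encoded beside them and the proteins that carry their signal to the nucleus were followed in the hippocampus of Dp1Rhr mice, a partial trisomy model of Down syndrome. The set held 9 genes of 19938 that could be named and tested. It comprised 5 receptor chains (Ifnar1, Ifnar2, Ifngr1, Ifngr2 and Il10rb) and 4 transducers (Jak1, Tyk2, Stat2 and Irf9), and it was given as a list of names by their role in the pathway, drawn up with earlier results of these data known. Each of the 9 had 1 probe set with a single annotated symbol.

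The mice were male, 16 weeks old and, per the labels, on a C57BL/6N background, whereas the methods of the study describe backcrossing towards C57BL/6J. The 5 Dp1Rhr mutants carried, in all their cells, a tandem copy of the chromosome 16 segment bounded by Cbr1 and Fam3b, which brings its genes to 3 copies. The 5 control mice were wild type littermates from the cross of Dp5Yah with Dp1Rhr, and its remaining genotypes were left out. Each animal gave 1 Affymetrix Mouse Gene 1.0 ST array of hippocampal RNA, and values are log2 signals after RMA. In the duplicated interval, 14 of 31 measured genes rose and 0 fell (limma adjusted p under 0.05), with a median log2 fold change of 0.21. Array medians lay between 6.77 and 6.83, and control replicates 2 and 3 stood apart from the other arrays on the first principal component and in choroid plexus genes.

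Type I interferons bind a receptor made of the chains IFNAR1 and IFNAR2. Interferon gamma, the type II interferon, binds IFNGR1 with IFNGR2, and IL10RB is the shared chain of the receptors for interleukin 10, interleukin 22 and the type III interferons. The receptor chains have no enzyme of their own and work through bound Janus kinases, JAK1 on IFNAR2 and IFNGR1, and TYK2 on IFNAR1 and IL10RB. After type I interferon these kinases phosphorylate STAT2, which acts with IRF9 in the complex ISGF3 at interferon-stimulated response elements. In humans the genes IFNAR1, IFNAR2, IFNGR2 and IL10RB lie together on chromosome 21, and in brain microglia, astrocytes, endothelium and neurons can all respond to type I interferon.

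In the mouse the same 4 genes formed a cluster on chromosome 16. Its order (GRCm38) was Ifnar2 at chr16:91372783-91405589, Il10rb at chr16:91406157-91425834, Ifnar1 at chr16:91485032-91510523 and Ifngr2 at chr16:91547059-91564007. The cluster spanned 191 kb and ended 2.04 Mb before the start of Cbr1, so its genes were at 2 copies in both groups. Ifnar2 and Il10rb were separated by 567 bases, Il10rb and Ifnar1 by 59.2 kb, and Ifnar1 and Ifngr2 by 36.5 kb. The other members lay elsewhere, Ifngr1 and Stat2 on chromosome 10, Irf9 on chromosome 14, Jak1 on chromosome 4 and Tyk2 on chromosome 9.

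Promoter sequence from RefSeq (GRCm38.p6) was matched by symbol for 8 of the 9 genes. Ifnar2 and Ifnar1 are shown because they encode the 2 chains of one receptor and only Ifnar2 passed the threshold. Stat2 is shown because its window held a letter match to the core of the element at which ISGF3 acts. Each runs from 250 bases before a transcript start to 10 bases after it, on the plus strand, at chr16:91372533-91372792 for Ifnar2, chr16:91484965-91485224 for Ifnar1 and chr10:128270248-128270507 for Stat2. Capitals mark the core of a gamma-activated site (TTCNNNGAA, the same on both strands) in Ifnar2 and Ifnar1, and the core of an interferon-stimulated response element (GAAANNGAAA, here on the opposite strand) in Stat2.
Ifnar2: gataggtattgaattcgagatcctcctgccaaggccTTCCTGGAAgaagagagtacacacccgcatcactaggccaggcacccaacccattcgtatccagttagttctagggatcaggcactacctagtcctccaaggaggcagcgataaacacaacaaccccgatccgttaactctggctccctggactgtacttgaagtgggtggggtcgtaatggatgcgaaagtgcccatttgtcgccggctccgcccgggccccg
Ifnar1: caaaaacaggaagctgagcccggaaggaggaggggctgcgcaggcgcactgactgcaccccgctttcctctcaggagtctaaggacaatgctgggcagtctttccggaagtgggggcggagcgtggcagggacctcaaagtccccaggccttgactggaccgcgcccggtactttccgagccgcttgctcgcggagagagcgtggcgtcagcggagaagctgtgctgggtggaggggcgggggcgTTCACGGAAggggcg
Stat2: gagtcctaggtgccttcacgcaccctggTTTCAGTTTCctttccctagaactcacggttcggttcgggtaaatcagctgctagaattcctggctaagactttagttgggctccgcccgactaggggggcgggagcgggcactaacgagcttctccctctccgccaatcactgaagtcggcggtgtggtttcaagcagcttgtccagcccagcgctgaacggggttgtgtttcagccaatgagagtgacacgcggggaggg
The gamma-activated core began at position -214 from the start in Ifnar2 and at -5 in Ifnar1, and it occurred in 8.30% of all 32851 promoter windows of 300 bases. The response element core began at -222 in Stat2 and occurred in 3.44% of windows. No window of the other members matched held either core. These are matches of letters and were not measured here as binding sites.

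The first comparison asked whether the receptor chains, which are not duplicated in Dp1Rhr, differed from control. Ifnar2 rose 1.20-fold and was the only 1 of the 9 genes past the threshold, and 0 fell. Over all genes tested, 0.802% passed in either direction and 0.627% were higher. The 5 receptor chains had a median log2 fold change of 0.14 and the 4 transducers -0.04, beside -7.57e-05 over all genes. At an unadjusted limma p under 0.05, 3 of the 9 (Ifnar2, Il10rb and Ifngr1) were higher and 0 lower, where 8.55% of all genes were higher.

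Ifnar2 encodes the chain that binds type I interferon with high affinity and docks JAK1, and its gene also gives a soluble form that the single probe set (10436830) does not separate. Its log2 signals were 9.47, 9.45, 9.53, 9.52 and 9.43 in control replicates 1 to 5 and 9.88, 9.74, 9.58, 9.78 and 9.75 in Dp1Rhr replicates 1 to 5. All 5 Dp1Rhr arrays lay above all control arrays, the nearest being Dp1Rhr replicate 3, and 1.82% of all genes were separated in this way with Dp1Rhr higher. The control mean was 9.48 ± 0.04 (SD, n = 5) and the Dp1Rhr mean 9.75 ± 0.11 (SD, n = 5). The log2 fold change was 0.26 ± 0.05 SE (95% confidence interval 0.16 to 0.37, limma adjusted p = 0.0376).

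The size of this change varied little with the arrays used, from 0.23 to 0.31 with 1 array left out, while the adjusted p ran from 0.0112 to 0.106 and was under 0.05 in 3 of those 10 fits. It was lost without control replicate 1, 2, 3 or 5 and without Dp1Rhr replicate 1, 2 or 4. The controls with low choroid plexus signal, replicates 2 and 3, held the second lowest and the highest control signal of Ifnar2, and without both the log2 fold change was 0.27 ± 0.06 SE (adjusted p = 0.128). Adding a choroid plexus score (the mean z-score of 15 marker genes in that array) as a covariate gave 0.25 ± 0.06 SE (adjusted p = 0.176). The score itself ran from -1.77 to 0.53 in control and from -0.04 to 1.05 in Dp1Rhr. This fit therefore cannot fully separate the score from the group.

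Il10rb, the next gene along the chromosome (probe set 10436841), read 8.38, 8.32, 8.27, 8.32 and 8.33 in control replicates 1 to 5. In Dp1Rhr replicates 1 to 5 it read 8.55, 8.47, 8.30, 8.51 and 8.64. Of the Dp1Rhr arrays 4 lay above every control, while replicate 3 fell inside the control range. The means were 8.32 ± 0.04 (SD, n = 5) and 8.50 ± 0.13 (SD, n = 5), a log2 fold change of 0.17 ± 0.05 SE that did not pass (limma adjusted p = 0.152). Without Dp1Rhr replicate 3 it was 0.22 ± 0.04 SE and passed (adjusted p = 0.0369), the only 1 of the 10 fits with 1 array left out that did. With the choroid plexus covariate it was 0.11 ± 0.07 SE (adjusted p = 0.539).

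Ifnar1, the second chain of the type I receptor, which docks TYK2 (probe set 10436849), read 9.16, 9.20, 9.13, 9.13 and 9.07 in control replicates 1 to 5. In Dp1Rhr replicates 1 to 5 it read 9.14, 9.11, 9.07, 9.14 and 9.16, so that every Dp1Rhr array lay within the control range. The log2 fold change was -0.02 ± 0.03 SE (95% confidence interval -0.08 to 0.05, adjusted p = 0.890). Its sign turned without control replicates 2 and 3, where the value was 0.00315.

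**Figure D1:**
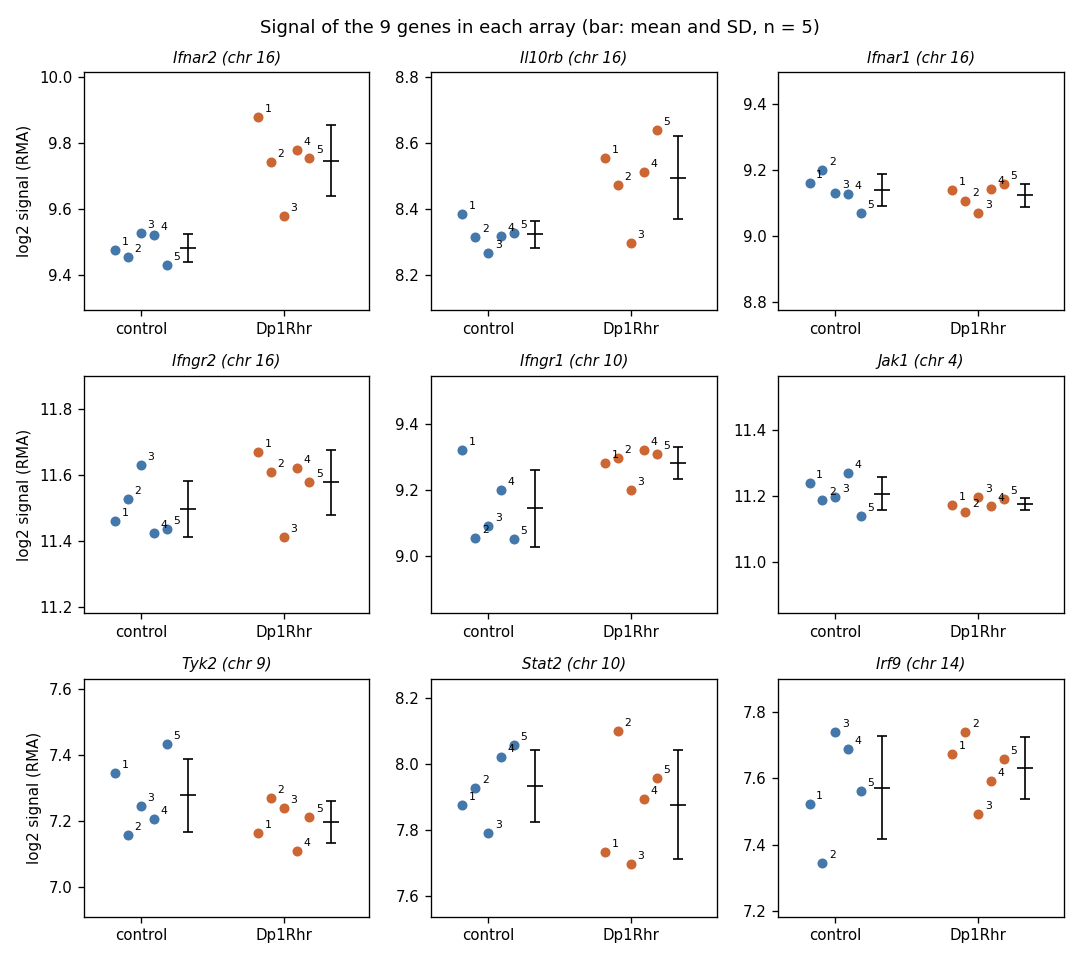
Log2 signal (RMA) of the 9 genes in each array, control in blue and Dp1Rhr in orange, numbered by replicate, with mean and SD (n = 5) as black bars. Every panel spans the same range of log2 units. Only for Ifnar2 do all 5 Dp1Rhr arrays lie above all controls, and Dp1Rhr replicate 3 is the lowest Dp1Rhr array for 7 of the 9 genes. That array also has the lowest mean over all genes tested of the 5 Dp1Rhr arrays.

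Both chains of the interferon gamma receptor were measured. Ifngr1, the ligand-binding chain on chromosome 10 (chr10:19591949-19610229, probe set 10361897), read 9.32, 9.06, 9.09, 9.20 and 9.05 in control replicates 1 to 5 and 9.28, 9.30, 9.20, 9.32 and 9.31 in Dp1Rhr replicates 1 to 5. All Dp1Rhr arrays were above the control mean, but control replicate 1 reached the top of their range. The log2 fold change was 0.14 ± 0.05 SE and did not pass (adjusted p = 0.224), and with the choroid plexus covariate it was 0.05 ± 0.05 SE.

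Ifngr2, the signalling chain of the cluster (probe set 10436865), read 11.46, 11.53, 11.63, 11.43 and 11.44 in control replicates 1 to 5. In Dp1Rhr replicates 1 to 5 it read 11.67, 11.61, 11.41, 11.62 and 11.58. The groups overlapped, with Dp1Rhr replicate 3 the lowest of the 10 arrays. The log2 fold change was 0.08 ± 0.05 SE (adjusted p = 0.530).

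None of the 4 transducers passed. Jak1, the kinase shared by IFNAR2 and IFNGR1 (chr4:101151974-101265282, probe set 10514668), lay between 11.14 and 11.27 in control and between 11.15 and 11.20 in Dp1Rhr. It had the narrowest spread of the 9 in Dp1Rhr, with an SD of 0.02, and differed between groups by -0.03 ± 0.03 SE on the log2 scale (adjusted p = 0.721). Tyk2, the kinase of IFNAR1 and IL10RB (chr9:21104068-21131393, probe set 10591446), lay between 7.16 and 7.43 in control and between 7.11 and 7.27 in Dp1Rhr, with -0.08 ± 0.05 SE (adjusted p = 0.538). All 5 Dp1Rhr arrays were below the control mean for each of these 2 kinases, within the range of the controls for Jak1 and with 1 array below it for Tyk2.

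Stat2, the transactivating subunit of ISGF3 (chr10:128270498-128292853, probe set 10367224), read 7.87, 7.93, 7.79, 8.02 and 8.06 in control replicates 1 to 5 and 7.73, 8.10, 7.70, 7.89 and 7.96 in Dp1Rhr replicates 1 to 5. Dp1Rhr held both the highest and the lowest of the 10 arrays, and the log2 fold change was -0.06 ± 0.08 SE (adjusted p = 0.807). Irf9, the DNA-binding subunit of ISGF3 (chr14:55603985-55610030, probe set 10415319), lay between 7.34 and 7.74 in control and between 7.49 and 7.74 in Dp1Rhr. Its log2 fold change was 0.06 ± 0.07 SE (adjusted p = 0.778). The 95% confidence intervals of both subunits were wide, from -0.23 to 0.11 for Stat2 and from -0.09 to 0.21 for Irf9.

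**Figure D2:**
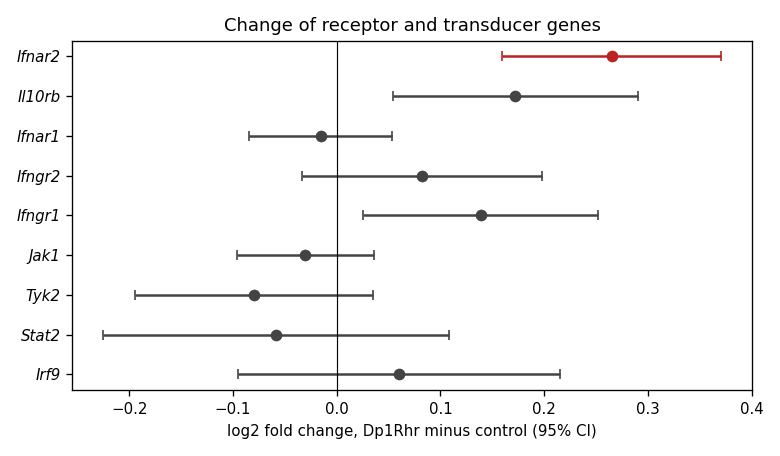
Change in log2 signal from control to Dp1Rhr (5 arrays each) for the 9 genes, with 95% confidence intervals. Ifnar2 (red) is past the adjusted threshold at 0.26, the intervals of Il10rb and Ifngr1 also lie above 0, and those of the other 6 genes include 0.

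The second comparison asked whether partners in one receptor or complex changed unequally. For each array the log2 signal of one gene was subtracted from that of its partner, and the differences were compared over all assignments of 5 of the 10 arrays. The difference of Ifnar2 over Ifnar1 averaged 0.34 ± 0.06 (SD, n = 5) over the controls and 0.62 ± 0.08 (SD, n = 5) over Dp1Rhr arrays, with control arrays from 0.25 to 0.39 and Dp1Rhr arrays from 0.51 to 0.74. It was thus 0.28 higher in Dp1Rhr (two-sided exact permutation p = 0.00794, the smallest possible, adjusted p = 0.0238 over the 3 pairs), and the groups did not overlap. With any 1 array left out it stayed between 0.25 and 0.31. Without control replicates 2 and 3 it was 0.27 and did not pass (exact permutation p = 0.0179, the smallest that 56 assignments allow, adjusted p = 0.0536). With that p at its limit and the other pairs as they were, the adjusted p could not have fallen under 0.05 in this setting. The level of a difference between 2 probe sets has no meaning by itself, since probe sets differ in brightness. Ifnar2 was known to pass from earlier results of these data. The test of its pair with Ifnar1 is therefore not separate support for the change of Ifnar2.

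For the interferon gamma receptor, Ifngr2 over Ifngr1 averaged 2.35 ± 0.17 (SD, n = 5) over the controls and 2.29 ± 0.06 (SD, n = 5) over Dp1Rhr arrays, a change of -0.06 (exact permutation p = 0.452, adjusted p = 0.452). Stat2 over Irf9 averaged 0.36 ± 0.20 (SD, n = 5) over the controls and 0.24 ± 0.12 (SD, n = 5) over Dp1Rhr arrays, a change of -0.12 (exact permutation p = 0.270, adjusted p = 0.405). In both pairs the groups overlapped.

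**Figure D3:**
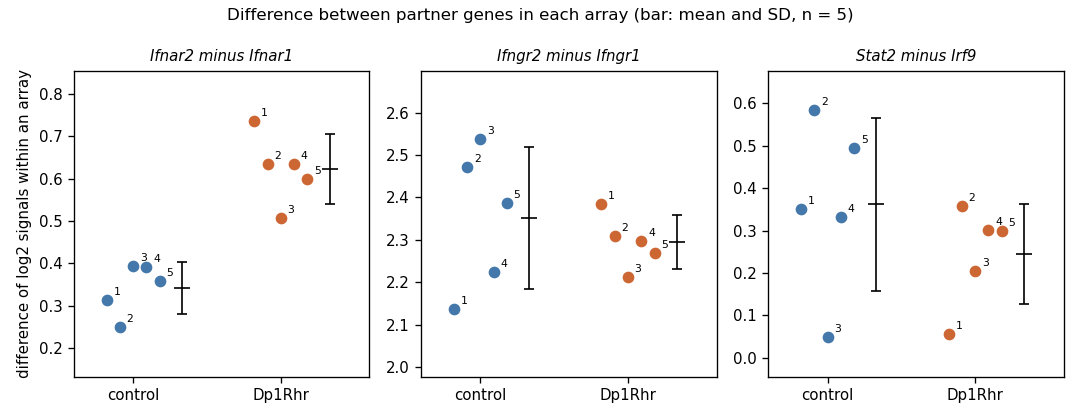
Difference of log2 signals between partner genes within each array, for control (blue) and Dp1Rhr (orange), numbered by replicate, with mean and SD (n = 5) as black bars. For Ifnar2 minus Ifnar1 the Dp1Rhr arrays, from 0.51 to 0.74, lie above the controls, from 0.25 to 0.39, whereas the groups overlap in the other 2 pairs.

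The third comparison set the cluster against its chromosomal neighbours. Of 30 other genes measured within 1 Mb on either side, 0 passed, and their median log2 fold change was 0.04. At an unadjusted limma p under 0.05, 4 of the 30 (Olig2, Olig1, Kcne2 and Clic6) were higher. Over all 19938 genes 1705 (8.55%) were higher and 1285 lower at that p. The smallest adjusted p among the 30 was that of Olig2, a transcription factor of the oligodendrocyte lineage whose gene starts 147 kb before Ifnar2. Olig2 averaged 9.24 ± 0.15 (SD, n = 5) over the controls and 9.49 ± 0.07 (SD, n = 5) over the mutants, with control replicate 4 inside the mutant range, and its log2 fold change was 0.25 ± 0.07 SE (limma adjusted p = 0.0901). Its neighbour Olig1, of the same lineage, had 0.09 ± 0.04 SE (adjusted p = 0.304).

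On the far side, Tmem50b, 10.5 kb beyond Ifngr2, gave 0.23 ± 0.13 SE (adjusted p = 0.467). The most positive values in the window were those of Clic6 (1.19 ± 0.54 SE, adjusted p = 0.332) and Kcne2 (0.59 ± 0.25 SE, adjusted p = 0.296), a chloride channel protein and a potassium channel subunit that are abundant in choroid plexus. Clic6 read 6.10 and 6.39 in control replicates 2 and 3 against 8.15 to 8.99 in the other controls. Values on both sides of Ifnar2 and Il10rb were therefore mixed, with 19 of the 30 genes above 0.

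**Figure D4:**
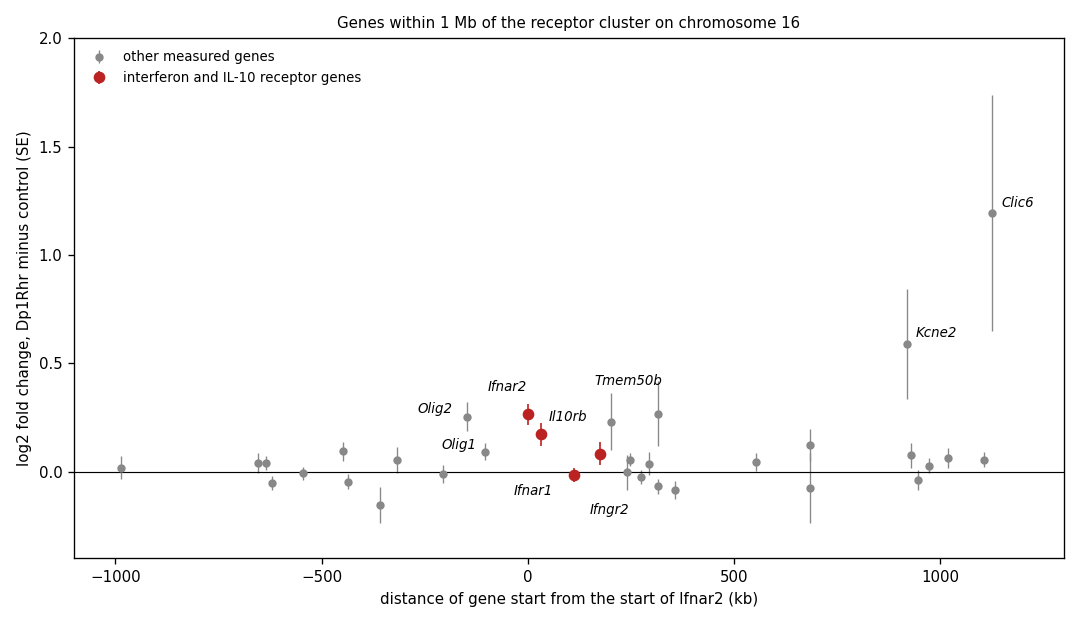
Log2 fold change (Dp1Rhr minus control, with SE) of the genes within 1 Mb of the receptor cluster, against the distance of their start from the start of Ifnar2 in kb. The 4 receptor genes are red and the 30 other genes grey, and of all these only Ifnar2 is past the adjusted threshold.

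The fourth comparison placed the 9 genes among the rest of the pathway. Of 6 other JAK and STAT genes measured, 0 passed, with a median of 0.01. On the log2 scale Jak2, the kinase of IFNGR2, differed by -0.08 ± 0.07 SE (adjusted p = 0.658), Stat3, used by the interleukin 10 receptor, by 0.05 ± 0.06 SE (adjusted p = 0.817), and Stat4 by -0.03. Jak3 had no probe set with a single annotated symbol and was not analysed. The 6 other class II cytokine receptor chains, among them Il10ra and Ifnlr1, which encode partners of IL10RB, gave 0 calls and a median of -0.06, with all 6 below 0. Il20ra, Il22ra2 and Il22ra1 had -0.06 each, but their signals were dim, at percentiles 12.8, 13.4 and 27.5 of mean signal over all genes.

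Of 12 measured ligands 0 passed, with a median of -0.02. The log2 fold change of Ifnz, a gene of the type I interferon locus, was -0.15 ± 0.05 SE (adjusted p = 0.141), that of Ifna2 0.09 and that of Ifne -0.09. Of 13 negative regulators 0 passed, with a median of -0.02. Ptpn1, a phosphatase that acts on JAK2 and TYK2, had -0.20 ± 0.04 SE (adjusted p = 0.0694), with all 5 Dp1Rhr arrays (8.88 to 9.01) below all controls (9.03 to 9.25). Of all 19938 genes, 338 were separated in this way with Dp1Rhr lower. Usp18, which binds IFNAR2 and blocks its signalling, had 0.10 ± 0.04 SE (adjusted p = 0.263), and Ptpn2, a phosphatase of JAK1, 0.13 ± 0.07 SE (adjusted p = 0.391).

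Of 7 interferon regulatory factors 0 passed, with a median of -0.02, and Irf8, Irf5 and Irf3 had -0.09, 0.05 and 0.06. Among 24 interferon-induced genes, the targets downstream of these receptors, 0 passed over all genes, and the median was 0.10. At an unadjusted limma p under 0.05, 12 of the 24 were higher and 0 lower, where 8.55% of all genes were higher. Irgm1, an immunity-related GTPase, had 0.38 ± 0.08 SE (adjusted p = 0.0628), Gbp3, a guanylate-binding protein, 0.21 ± 0.05 SE (adjusted p = 0.0715), and B2m, the light chain of class I MHC, 0.18 ± 0.04 SE (adjusted p = 0.0788). For Gbp3 the 5 Dp1Rhr arrays, from 7.06 to 7.20, lay above the controls, from 6.76 to 7.00. In this list 2 of the 24 genes were separated with Dp1Rhr higher, beside 1.82% of all genes.

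**Figure D5:**
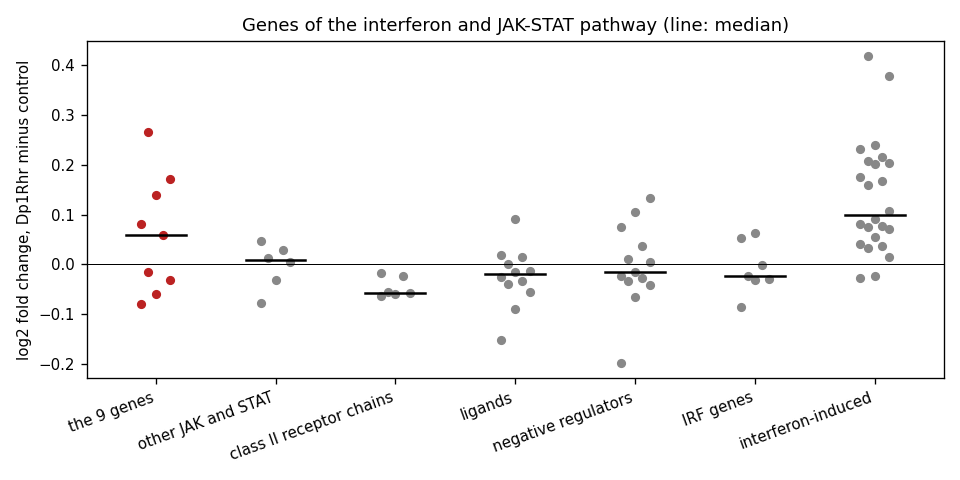
Change in log2 signal from control to Dp1Rhr (5 arrays each) for the 9 genes (red) and of 6 other lists of the interferon and JAK-STAT pathway (grey), 1 point per gene, with the median as a black line. Medians lie between -0.06 and 0.01 for the 5 lists of signalling genes in grey, at 0.06 for the 9 genes and at 0.10 for interferon-induced genes.

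The fifth comparison looked at cell types in which these receptors can be expressed. In bulk tissue fewer cells of a type and less RNA per cell cannot be told apart. Of 10 hippocampal neuron markers 0 passed (median 0.00), and the list mean lay between 9.88 and 9.95 in control and between 9.90 and 9.97 in Dp1Rhr. The granule cell factor Prox1 was between 10.1 and 10.5 on all arrays. Of 9 microglia markers 0 passed (median 0.08), with list means from 8.81 to 8.93 in control and from 8.90 to 8.99 in Dp1Rhr, and 7 of the 9 were above 0, of which 3 had an unadjusted p under 0.05.

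Among 8 markers of border macrophages and other myeloid cells, 1 rose, the lysozyme gene Lyz2, by 0.63 ± 0.10 SE on the log2 scale (adjusted p = 0.0291). The list mean was 6.21 to 6.64 in control and 6.52 to 6.74 in Dp1Rhr. Cd74 and the class II MHC genes H2-Ab1 and H2-Aa had 0.73, 0.27 and 0.31, each with an unadjusted limma p under 0.05. The macrophage markers Mrc1, Cd163, Pf4 and Lyve1 did not follow, with 0.02, -0.002, 0.04 and -0.10, none of them at that p. Of 7 endothelial markers 0 passed, with a median of 0.10 (8.80 to 8.97 in control, 8.88 to 8.99 in Dp1Rhr). Of 7 lymphocyte markers 0 passed, with a median of 0.03 (5.61 to 5.70 in control, 5.63 to 5.74 in Dp1Rhr).

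Of 15 choroid plexus markers 0 passed and all 15 were above 0 (median 0.87), with list means of 7.02 and 7.26 in control replicates 2 and 3, 8.37 to 8.95 in the other controls and 8.55 to 9.32 in Dp1Rhr. Of 8 oligodendrocyte markers, Olig1 and Olig2 among them, 0 passed and all 8 were above 0, with a median of 0.15 (10.98 to 11.15 in control, 11.11 to 11.29 in Dp1Rhr). Of 8 astrocyte markers 0 passed, with a median of 0.07, and of 8 meningeal markers 0 passed, with a median of 0.11. Of 2 blood markers 1 rose, Alas2 of haem synthesis, with a log2 fold change of 0.67. At an unadjusted limma p under 0.05, 10 choroid plexus, 6 oligodendrocyte, 4 myeloid, 3 microglia, 2 endothelial and 2 meningeal markers were higher and 0 lower. Astrocyte markers went both ways, 3 higher and 2 lower, and 0 neuron or lymphocyte markers reached that p. Over all genes 8.55% were higher. The part of these cell types in the change of Ifnar2 was not tested, apart from the fit with the choroid plexus covariate.

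Across arrays, Dp1Rhr replicate 3 was the lowest Dp1Rhr array for 7 of the 9 genes, and control replicate 5 the lowest of all 10 arrays for 4. Dp1Rhr replicate 3 also had the lowest mean over all genes tested among the Dp1Rhr arrays (7.684 against 7.688 to 7.696). Control replicate 5 had the lowest such mean of all 10 arrays (7.676). The share of all genes lowest on these arrays was not counted. With group means removed, the genes whose signal followed Ifnar2 most closely over the 10 arrays, of 11962 compared, were Brf2 (Pearson r = 0.96), Cisd2 (0.95), Stk35 (0.94), Incenp (0.94) and Fpgt (0.93). They are the highest of many correlations over few arrays and are given as a description. Among the 9 genes the closest were Ifngr2 (0.77, rank 221), Il10rb (0.64, rank 937) and Irf9 (0.56), and Ifnar1 had 0.47.

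By FCROS, the fold change ranking method used in the study, Ifnar2 and Il10rb passed as higher and the other 7 genes did not, and this method called 3.40% of all genes higher.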

How the data were processed

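Hippocampal RNA of each mouse was hybridised to 1 Affymetrix Mouse Gene 1.0 ST array, for 5 Dp1Rhr mice and 5 controls. The authors normalized the scans with RMA and deposited log2 values for 35556 probe sets, and their processing notes name limma and mm10. RMA includes a quantile step across arrays, so a shift common to every gene is removed. The sources used here do not state which arrays were normalized together. The number of arrays limits the precision.

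Probe sets were named from the platform annotation, with symbols updated through Entrez identifiers to RefSeq genes of GRCm38 (21698 of 21789 with 1 symbol matched). Another 1621 had several symbols, 12146 had none listed, and neither kind was tested. The brightest probe set by mean over the 10 arrays stood for each of 999 genes with more than 1. All 9 members lay above the 40th percentile of mean signal. Of the genes named from the pathway lists, Stat4, Il20ra, Il22ra1, Il22ra2, Il10ra, Ifnlr1, Ifnz, Ifna2, Ifne, Usp18 and Irf5 lay below it. Their fold changes carry less weight. Groups were compared in limma 3.58.1 under R 4.3.3 (lmFit, eBayes, two-sided, Benjamini-Hochberg over 19938 genes, threshold 0.05), and the script was tested on simulated data. FCROS calls a near-fixed share of genes and was an alternative, implemented anew (trim 0.25, f-value limits 0.025 and 0.975). Paired genes were compared with two-sided exact permutation tests over all assignments of the arrays.

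Samples are labelled as biological replicates, which was taken as 1 mouse each. Members and lists were chosen with earlier results of these data known. Named genes were the 9 members, the 3 genes with the smallest p and any past the threshold in each pathway list, genes near the cluster and the 5 most correlated with Ifnar2. Il10ra, Ifnlr1, Jak3 and the marker genes are outside that rule, and Prox1 was chosen after its values were seen. Alternatives were a replicate block, leaving out arrays, a second quantile normalization, median centring, a filter on dim genes, other handling of probe sets, trend with robust, array weights and a choroid plexus score (mean z-score of 15 markers) as covariate.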

Additional observations from a re-analysis of the deposited data

Results flagged for a closer look

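The outlying-array check (gap to the nearest array over the range, critical value 0.71 for 5 arrays) was run on 54 sets of 5 arrays, where chance gives about 1 in 20. It marked none of the 18 sets of the 9 genes. It marked 1 other, Cd74, the invariant chain of class II MHC, which read 7.05 in Dp1Rhr replicate 3 against 7.77 in the next lowest Dp1Rhr array.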

How the results depend on the processing

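The direction of the Ifnar2 change held in every alternative run, with its log2 fold change between 0.23 and 0.31 with 1 array left out. The call was lost with the replicate block (0.26, adjusted p = 0.134), without control replicates 2 and 3 (0.27), after centring on array medians (0.27, adjusted p = 0.0519) and with the choroid plexus score (0.25). The count of members past the threshold, 1, was 0 under each of these 4 settings, 2 under FCROS and between 0 and 2 with 1 array left out. The count over all genes, 160, was 4 with the replicate block, 5 without control replicates 2 and 3, 6 with the choroid plexus score, 280 with array weights, 1075 under FCROS and between 5 and 284 with 1 array left out. Values near 0 changed sign: Ifnar1 without control replicates 2 and 3 (0.00315), Irf9 with the choroid plexus score (-0.00673), Ifnar1 with 1 array left out (from -0.033 to 0.000172) and the Ifngr2 minus Ifngr1 change without control replicates 2 and 3 (0.045). The Ifnar2 minus Ifnar1 change was 0.27 without control replicates 2 and 3 (exact permutation p = 0.0179, the smallest that 56 assignments allow, adjusted p = 0.0536) and 0.28 in same-numbered pairs (exact p = 0.0625, the smallest that 32 sign changes allow). In same-numbered pairs no p under 0.05 was possible. Without control replicates 2 and 3 no adjusted p under 0.05 was possible, given the other pairs. The Stat2 minus Irf9 change ranged from -0.20 to -0.063 with 1 array left out and passed without control replicate 3 (exact permutation, adjusted p = 0.0476). Replicate numbers are not said to mark litters, same-numbered arrays correlated at -0.337 to 0.124 after removal of group means, and 0 of the 5 numbers correlated best with itself. With 1 array left out the Ifnar2 call was lost in 7 of 10 fits (adjusted p = 0.0112 to 0.106 over the 10). Il10rb passed under FCROS and without Dp1Rhr replicate 3, and no other call of the 9 genes changed. With 5 arrays per group the standard errors of the 9 genes lay between 0.03 and 0.08, and this limits the changes that could pass.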
